A study of Mus musculus with 12 samples.

Results

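Armcx1, Armcx2, Armcx3, Armcx4 and Armcx6 are the 5 measured armadillo repeat genes of the Armcx cluster on mouse chromosome X, among 8267 genes with a name on the arrays. They were chosen by name and family after the low values of Armcx2, Armcx3 and Armcx6 at 4 h of BMP6 had been seen, so the change at 4 h is given as a description with no test. In the RefSeq gene order Armcx4, Armcx1, Armcx6, Armcx3 and Armcx2 follow each other with no other measured gene between them, as the name of the cluster implies. The probes of Armcx5, the remaining gene of that series, are annotated jointly with a neighbour and were not used here.

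The cells were MECs, a mouse endothelial line of intraembryonic origin, cultured in 4 groups of 3 arrays: mock-treated controls and cells given BMP6 for 4, 12 or 24 h. BMP6, bone morphogenetic protein 6, is a secreted ligand of the TGF-beta superfamily. All 12 arrays carried cell RNA in Cy5 against the same universal mouse reference RNA in Cy3, and the labels describe the replicates of a group as independent biological ones. The sources used here give no dose of BMP6 and no time for the controls.

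The proteins of the Armcx family carry armadillo repeats, a fold that binds other proteins. The family lies on the X chromosome of placental mammals and is held to derive from Armc10, a related gene on another chromosome. Several members sit on the outer membrane of mitochondria: in mouse neurons Armcx3, also called Alex3, binds the Miro and Trak proteins that link mitochondria to kinesin motors, and Armcx1 promotes the transport of mitochondria along axons. BMP ligands act through receptor kinases and SMAD transcription factors, whose best known targets are the Id genes.

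A value is the log ratio of cell RNA over reference RNA, taken here as log2, so that a difference of 1 between groups is a doubling. Neither the log base nor the sign is stated by the submitters' texts used here. The reading as cells over reference rests on the dyes in the labels and is likely from the BMP targets Id1, Id2 and Id3, whose changes at 4 h under it were 0.98, 0.84 and 0.64, higher in all 3 pairs each. If the ratios ran the other way, every fall described here would be a rise. With natural logarithms instead of log2, the folds would be larger. The probe order of the value table was also inferred, from agreement between probes of the same gene, and every gene name rests on it: with the probe numbers read as plain row numbers, the change given to Armcx2 at 4 h would be 0.02.

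RefSeq promoter windows of 4 of the 5 genes are printed because these neighbouring genes had very different changes at 4 h. The promoters used here include none for Armcx3, which was also low at 4 h. Each window runs from 250 bases before to 50 after the RefSeq start in GRCm38.p6, 5′ to 3′ on the strand of the gene, with CACGTG and TGACG on either strand in capitals. They lie at chrX:134809172-134809471 (minus strand) for Armcx2, chrX:134751370-134751669 (minus strand) for Armcx6, chrX:134717688-134717987 (plus strand) for Armcx1 and chrX:134686269-134686568 (plus strand) for Armcx4.
Armcx2: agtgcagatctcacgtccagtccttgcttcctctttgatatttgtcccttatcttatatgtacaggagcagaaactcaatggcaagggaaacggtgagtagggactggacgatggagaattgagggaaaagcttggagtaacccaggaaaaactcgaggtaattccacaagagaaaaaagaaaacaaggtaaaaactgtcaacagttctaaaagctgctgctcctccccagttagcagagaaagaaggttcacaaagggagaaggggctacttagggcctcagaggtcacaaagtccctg
Armcx6: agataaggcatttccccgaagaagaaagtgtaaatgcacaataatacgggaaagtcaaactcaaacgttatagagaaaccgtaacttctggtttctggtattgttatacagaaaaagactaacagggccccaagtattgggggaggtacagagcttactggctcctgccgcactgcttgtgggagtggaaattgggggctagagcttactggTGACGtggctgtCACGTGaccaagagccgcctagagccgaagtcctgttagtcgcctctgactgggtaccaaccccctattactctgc
Armcx1: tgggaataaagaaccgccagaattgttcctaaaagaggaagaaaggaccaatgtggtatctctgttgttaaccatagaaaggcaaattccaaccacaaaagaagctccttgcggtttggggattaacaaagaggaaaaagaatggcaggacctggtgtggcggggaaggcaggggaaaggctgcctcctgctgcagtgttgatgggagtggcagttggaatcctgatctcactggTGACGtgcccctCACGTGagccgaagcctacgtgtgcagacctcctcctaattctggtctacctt
Armcx4: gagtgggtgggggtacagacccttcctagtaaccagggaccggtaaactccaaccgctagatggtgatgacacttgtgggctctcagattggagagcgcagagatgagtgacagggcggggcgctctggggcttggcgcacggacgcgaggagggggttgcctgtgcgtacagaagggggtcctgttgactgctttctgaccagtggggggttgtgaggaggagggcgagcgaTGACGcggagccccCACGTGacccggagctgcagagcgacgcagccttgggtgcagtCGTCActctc

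Windows of Armcx1, Armcx4 and Armcx6 each hold CACGTG, the palindromic E-box bound by many basic helix-loop-helix factors, and TGACG, the core of the cAMP response element. Of all 32851 promoters in the RefSeq table, 7.15% hold CACGTG, 20.8% hold TGACG and 2.11% hold both. In the windows of Armcx1 and Armcx6 the first base of TGACG lies 12 bases before that of CACGTG, and in the window of Armcx4 it lies 14 bases before. A run of 12 bases, ACTGGTGACGTG, is shared by the windows of Armcx1 and Armcx6 and stands in 2 of the 32851 promoters, a run that was looked for after the sequences had been seen.

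The window of Armcx2 held none of the 7 motifs searched on both strands, a list that covered those 2 and 5 others. The short SMAD motif CAGAC, held by 49.6% of all promoters, stood in the windows of Armcx1 and Armcx4. The NF-Y box, spelled CCAAT and held by 37.4% of them, stood in those of Armcx1, Armcx4 and Armcx6. None of the 4 windows held the SMAD motif GGCGCC, which 11.9% of all promoters hold. The TATA box was searched as TATAAA, present in 13.6% of promoters but in no Armcx window. The same was true of the ETS motif, searched as CCGGAAG and present in 8.86% of promoters. The matches in these windows share no base with each other. GC content was 45.7% for Armcx2, 49.0% for Armcx6, 50.3% for Armcx1 and 63.3% for Armcx4. Of the 7 motifs the windows held 0 in Armcx2, 3 in Armcx6, 4 in Armcx1 and 4 in Armcx4. Of the genes low at 4 h, Armcx6 thus held CACGTG and TGACG, as Armcx1 and Armcx4 did, and Armcx2 held neither. A tie between motifs and the changes at 4 h was not tested.

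**Figure D1:**
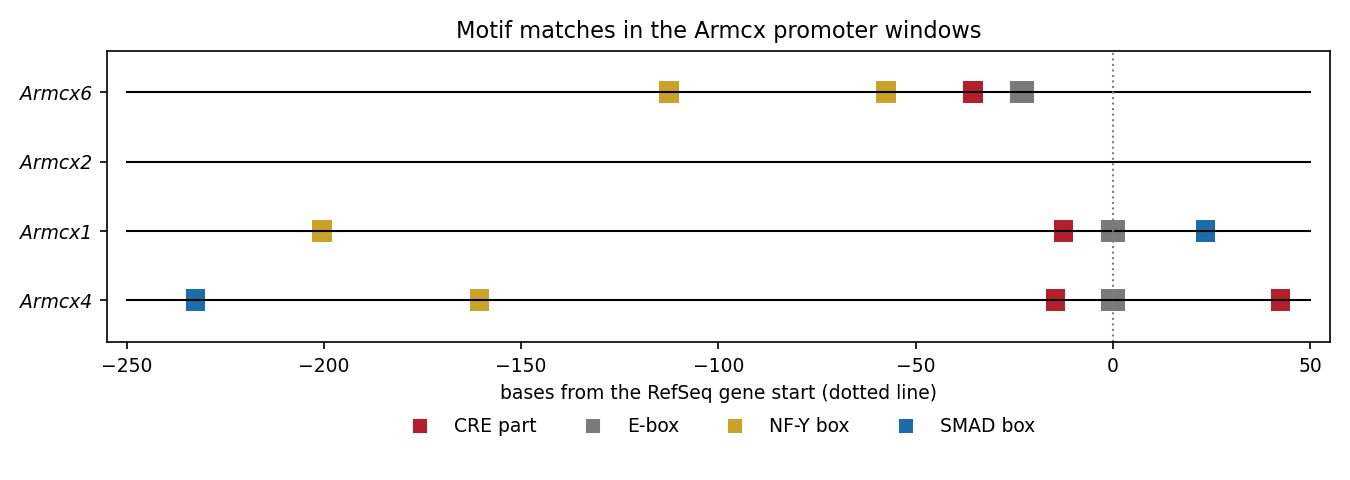
Matches to the searched motifs in the promoter windows of 4 Armcx genes, by distance in bases from the RefSeq start, with each square a match on either strand. The E-box and the CRE part stand side by side near the start in Armcx6, Armcx1 and Armcx4, and Armcx2 has no match.

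After 4 h of BMP6, Armcx2, Armcx3 and Armcx6 were 1.58-fold to 1.79-fold lower than in control cells, and by 24 h their means lay within 0.08 log2 units of control. Armcx1 and Armcx4, on the side of the cluster toward Hnrnph2, had changes of -0.13 and -0.01 at 4 h. At 12 h Armcx2 and Armcx3 were still below control, and Armcx2 rose between 12 and 24 h with an adjusted p close to the threshold, each in a fit that pairs arrays by replicate number. Less RNA per cell and fewer cells expressing a gene cannot be told apart in these bulk samples.

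Armcx2 encodes a member of the family first described, as human ALEX2, among genes with reduced expression in epithelial tumours. Its log2 ratio to the reference was 2.03, 1.39 and 1.56 on control arrays 1, 2 and 3, then 1.32, 0.54 and 0.61 at 4 h, 1.57, 0.85 and 1.07 at 12 h, and 2.02, 1.35 and 1.38 at 24 h. Every array at 4 h lay below every control array, while the 12 h and 24 h arrays overlapped the controls. The 3 same-numbered differences at 4 h were -0.71, -0.85 and -0.95. Their mean was -0.84 (n = 3 pairs, SE 0.057 from limma's paired fit of all 12 arrays), 56.0% of the control level. This was the 4th lowest change of the 8267 genes.

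Armcx3, the mitochondrial transport adaptor, had log2 ratios of 0.95, 0.53 and 0.51 on the control arrays, 0.15, -0.25 and -0.15 at 4 h, 0.47, 0.04 and 0.29 at 12 h, and 0.92, 0.40 and 0.54 at 24 h. The 4 h and the 12 h arrays all lay below the 3 controls, and the 24 h arrays overlapped them. At 4 h the pairs differed by -0.79, -0.77 and -0.66, on average by -0.74 (n = 3 pairs, SE 0.058 from limma's paired fit). This was a level 59.8% of control and the 9th lowest change of all genes.

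Armcx6, a less studied member of the family, had log2 ratios of 0.60, 0.23 and 0.28 on the control arrays, -0.11, -0.48 and -0.29 at 4 h, 0.44, -0.26 and 0.02 at 12 h, and 0.73, 0.11 and 0.25 at 24 h. All 4 h arrays lay below the controls, and those of the later times overlapped them. The differences of the pairs at 4 h were -0.71, -0.71 and -0.56. Their mean was -0.66 (n = 3 pairs, SE 0.071 from limma's paired fit), 63.3% of control and the 13th lowest change.

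Armcx1, the axonal mitochondrial transport gene, had log2 ratios of -0.52, -0.41 and -0.26 on the control arrays, -0.60, -0.51 and -0.46 at 4 h, -0.46, -0.49 and -0.40 at 12 h, and -0.42, -0.46 and -0.32 at 24 h. Its groups overlapped at every time. The mean change at 4 h was -0.13 (SE 0.051 from limma's paired fit), lower in 3 of 3 pairs, and it ranked 1393rd from the lowest of all genes.

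Armcx4 was measured by 2 probes, and the mean of both was -1.12, -1.03 and -1.09 on the control arrays, -1.15, -1.10 and -1.01 at 4 h, -1.11, -1.08 and -1.10 at 12 h, and -1.09, -1.16 and -1.11 at 24 h. Its groups overlapped throughout, with a change at 4 h of -0.01 (SE 0.049 from limma's paired fit). The probes gave nearly the same picture at 4 h, with means of -0.88 at 4 h and -0.86 in control cells for the first, and -1.30 at 4 h and -1.30 in control cells for the second.

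**Figure D2:**
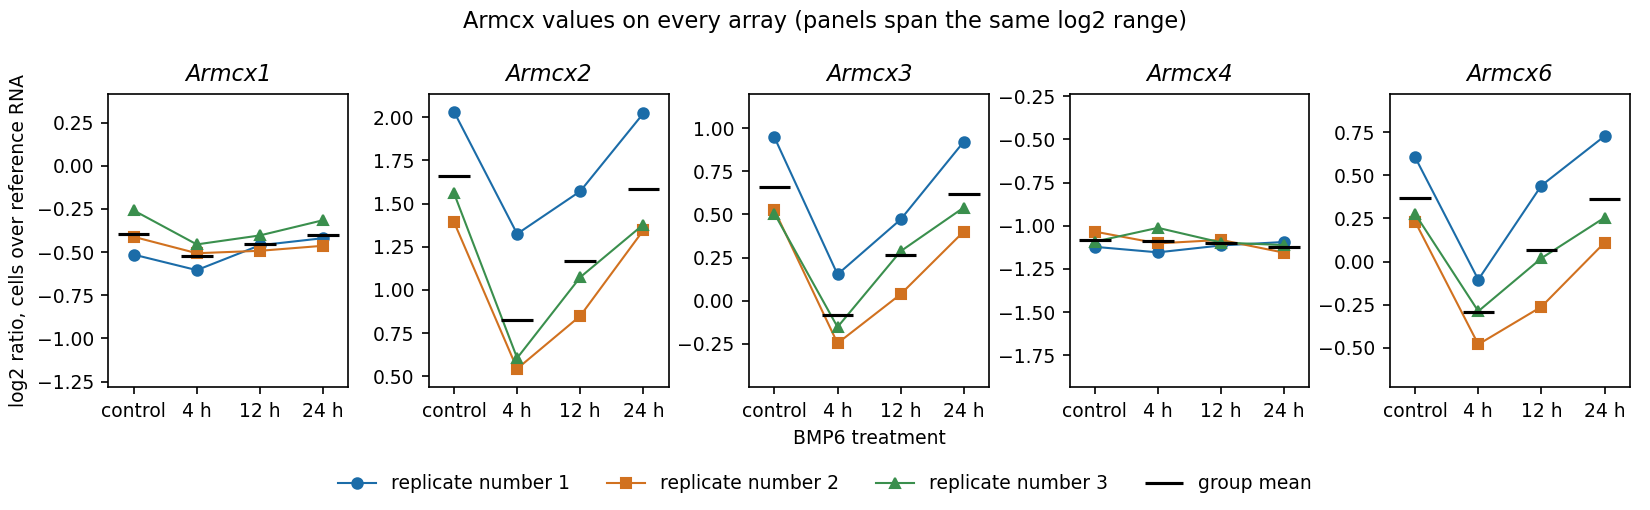
Log2 ratio of cell RNA over reference RNA for each Armcx gene on all 12 arrays, by BMP6 treatment, with lines joining arrays of the same replicate number and black bars for the group means. Armcx2, Armcx3 and Armcx6 dip at 4 h on all 3 lines and return by 24 h, while Armcx1 and Armcx4 stay nearly level.

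At 4 h the 9 paired differences of Armcx2, Armcx3 and Armcx6 lay between -0.95 and -0.56, and the 6 of Armcx1 and Armcx4 between -0.20 and 0.08. The genes thus formed separate ranges, a difference between genes that was not tested. Armcx1 and Armcx4 were also the members below the reference RNA in control cells, with means of -0.40 and -1.08. Control means of Armcx2, Armcx3 and Armcx6 were 1.66, 0.66 and 0.37. Whether a weak signal kept the changes of Armcx1 and Armcx4 small was not tested, because no spot intensities were used. Over all genes, 6.33% had every 4 h array below every control array, as these 3 members had. In the paired fit, 3.75% of all genes were called lower and 2.27% higher at 4 h (adjusted p under 0.05), from which nothing is read about the members because this comparison chose them. The median change was -0.66 over the 5 members and -0.01 over all genes.

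**Figure D3:**
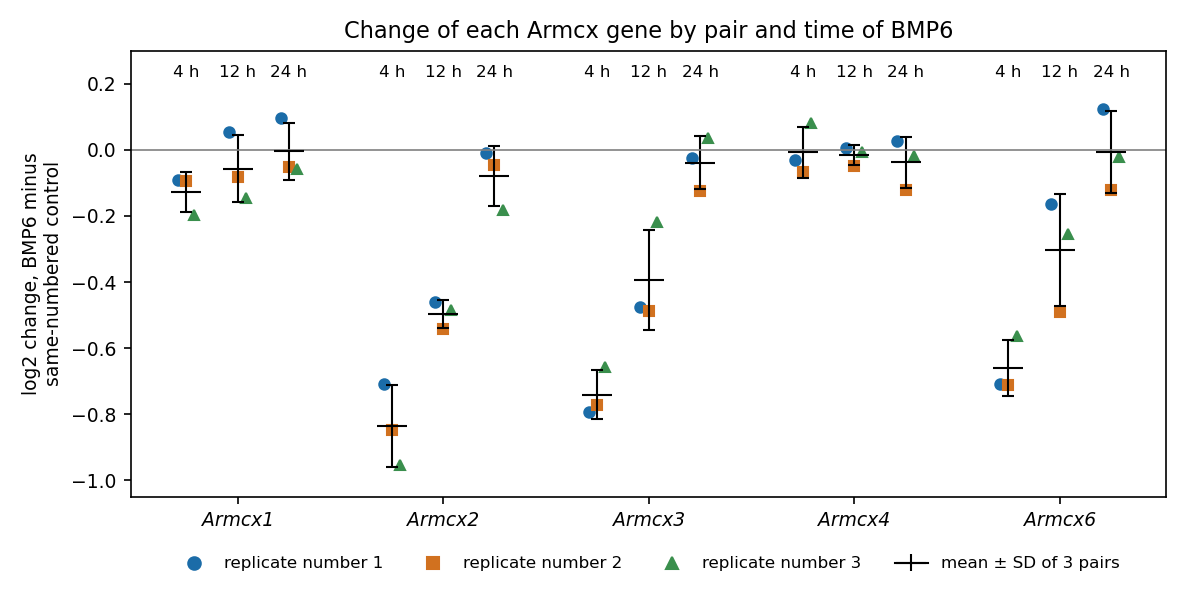
Log2 change of each Armcx gene against the same-numbered control after 4, 12 and 24 h of BMP6, with symbols for the 3 replicate numbers and bars for the mean and SD of the pairs. For Armcx2, Armcx3 and Armcx6 the changes shrink from 4 to 12 to 24 h, and for Armcx1 and Armcx4 the means stay between -0.13 and -0.00.

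Whether the low values lasted was asked by comparing 12 h with control. Armcx2 fell by 0.50 on the log2 scale at 12 h, or 1.41-fold (SE 0.057, adjusted p = 0.00283 in limma's paired fit, lower in 3 of 3 pairs). Armcx3 fell by 0.39, or 1.31-fold (SE 0.058, adjusted p = 0.00896 in limma's paired fit, lower in 3 of 3 pairs). The value of Armcx6 was -0.30 (SE 0.071), lower in 3 of 3 pairs, and missed the threshold with an adjusted p of 0.0672 in the same limma fit. The values of Armcx1 and Armcx4 were -0.06 and -0.02, with adjusted p-values of 0.660 and 0.925. Of the 5 members 2 were thus called lower and 0 higher, beside 1.42% of all genes called lower and 0.472% called higher. The members' median change was -0.30 and that of all genes -0.002. The comparison uses the same 3 control arrays as the one at 4 h that chose the genes, so it is no independent support for it.

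Both calls at 12 h need the pairing: without the replicate block the adjusted p was 0.99996 for Armcx2 and for Armcx3. Armcx2 passed without each single array but not without all arrays of replicate number 1 (0.0547) or 2 (0.187), and Armcx3 missed the threshold without control replicate 2 (0.0606), 12 h replicate 1 (0.0628) or 12 h replicate 2 (0.0669), in a fit of the control and 12 h arrays alone (0.101), and without replicate number 1 (0.161) or 2 (0.229).

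By 24 h none of the 5 members was called different from control, with 0 at an unadjusted p under 0.05 in limma's paired fit, where 7.94% of all genes had one, and 0 in the unpaired fit. The changes were -0.08 for Armcx2 (95% interval -0.20 to 0.047), -0.04 for Armcx3 (-0.17 to 0.090), -0.01 for Armcx6 (-0.16 to 0.15), -0.00 for Armcx1 (-0.12 to 0.11) and -0.04 for Armcx4 (-0.15 to 0.071). A missed threshold does not show that the levels were equal, and the comparison shares the control arrays with the 4 h comparison that chose the genes. Few genes were called at that time at all: 0.0726% of them higher and 0.0968% lower.

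The means of 24 h and 12 h use no array of the 4 h comparison that chose the genes, although the spread in this fit is estimated over all 12 arrays. The members and tests were chosen with earlier results of these data known, so this comparison is not independent of that choice. In limma's paired fit of the 6 arrays of 12 h and 24 h alone no member passed, with an adjusted p of 0.0782 for Armcx2 and 0.0830 for Armcx3. In the fit of all arrays Armcx2 rose by 0.42 on the log2 scale at 24 h relative to 12 h, or 1.34-fold (SE 0.057, adjusted p = 0.0387 in limma's paired fit), with paired differences of 0.45, 0.50 and 0.30. Armcx3 was 0.36 higher (SE 0.058, adjusted p = 0.0674) and Armcx6 0.30 higher (SE 0.071, adjusted p = 0.212), each in 3 of 3 pairs, and neither passed in limma's paired fit. Armcx1 and Armcx4 differed by 0.05 and -0.02, with adjusted p-values of 0.878 and 0.963. Of the 5 members 1 was called higher and 0 lower, beside 0.0847% of all genes called higher, which are 7 genes, and 0.0242% called lower. Before adjustment, 3 of the 5 members and 8.55% of all genes had p under 0.05, and the members' median change was 0.30, against -0.0003 over all genes.

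That call of Armcx2 was close to the threshold and was lost without the replicate block (adjusted p = 1), in the fit of the 2 groups alone, with trend and robust eBayes (0.0777), in a fit of single probes (0.102) and without replicate number 1, 2 or 3 (0.521, 0.627 and 0.137). It stayed below 0.05 without control replicate 3 (0.0290) or 4 h replicate 3 (0.0299), and missed it without any other single array, with adjusted p-values of 0.0655 and 0.0619 without control replicates 1 and 2, 0.0510 and 0.0514 without 4 h replicates 1 and 2, 0.225, 0.309 and 0.0683 without 12 h replicates 1, 2 and 3, and 0.218, 0.176 and 0.134 without 24 h replicates 1, 2 and 3.

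The order of the 3 treated times was the same within each replicate number: the 4 h value was lowest and the 24 h value highest in 3 of 3 replicate numbers for Armcx1, Armcx2, Armcx3 and Armcx6, and in 1 of 3 for Armcx4. From 4 to 12 h the means of Armcx2, Armcx3 and Armcx6 differed by 0.34, 0.35 and 0.36, and from 4 to 24 h by 0.76, 0.70 and 0.65, described without a test because they use the 4 h arrays. Neighbouring times of these 3 genes overlapped between arrays, and replicate number 1 read highest in every group.

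Groups held 54.0% of the sum of squares of Armcx2, 70.6% of that of Armcx3 and 59.0% of that of Armcx6. Replicate numbers held 45.0%, 27.6% and 37.4%, and 1.02%, 1.80% and 3.63% were left. The share of the groups contains the 4 h change that chose these genes, so nothing is read from its size. Within groups, nearly all of the spread of these 3 genes was thus an offset shared by arrays of the same number. For Armcx4 the remainder was 67.9%, and over all genes it was 21.6%.

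**Figure D4:**
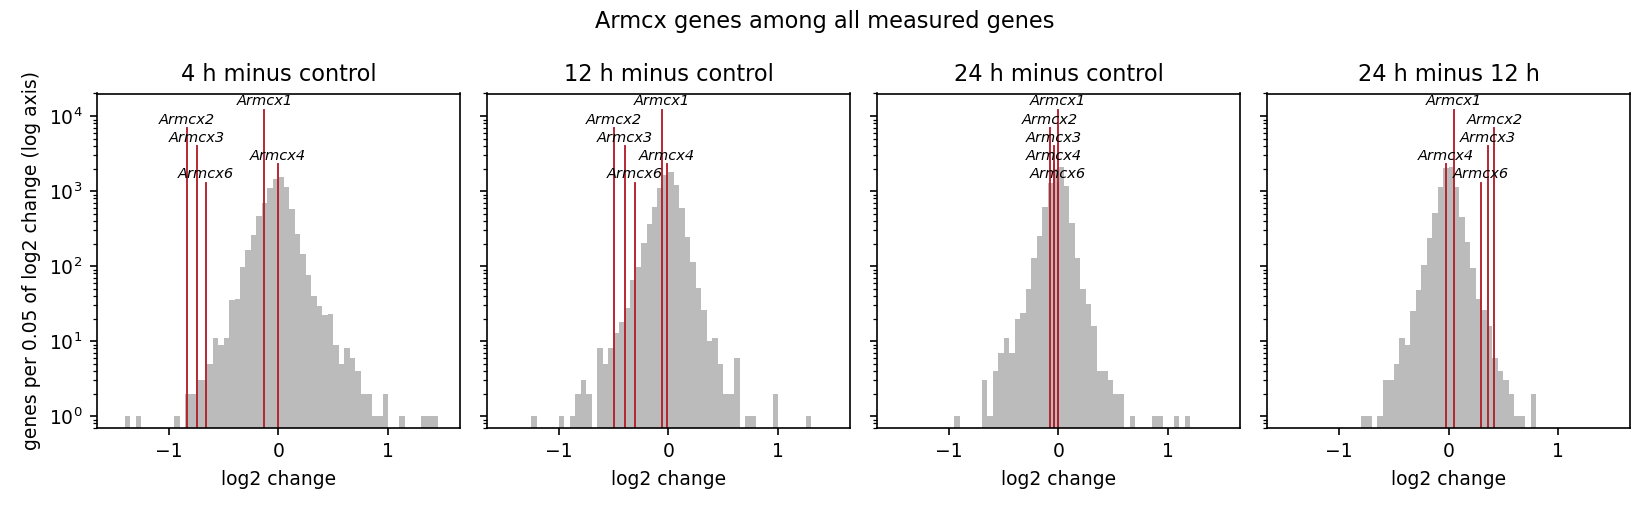
Log2 changes of all 8267 genes (grey, number of genes per bin of 0.05 on a log axis) in 4 comparisons, with a red line at each Armcx gene. Armcx2, Armcx3 and Armcx6 stand in the low tail at 4 h, nearer the bulk at 12 h, within it at 24 h, and in the high tail for 24 h minus 12 h.

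To see how far the low values reached along the chromosome, the 15 nearest measured genes on each side were examined. Hnrnph2, an RNA-binding splicing factor next to Armcx4, had a change at 4 h of -0.12 (adjusted p = 0.235), and Nxf2, an RNA export factor next to Armcx2, one of -0.10 (adjusted p = 0.752), by limma's paired fit. Neither was called. Of the 30 neighbours 3 were called lower at 4 h, or 10%, and 0 higher, beside 3.75% and 2.27% of all genes. Called or not, 21 of the 30 had a change below 0 and 9 above 0, beside 4327 below and 3924 above of all 8267 genes. Of the 281 measured genes of chromosome X outside the cluster, these 30 included, 7.47% were called lower and 2.14% higher. Among the same 281, 170 had a change below 0 and 111 above 0. The median change at 4 h was -0.08 over the neighbours and -0.03 over those 281 genes. The median of the members is not set against these, because the 4 h comparison chose them. Armcx1 (-0.13) and Armcx4 (-0.01) lay within the range of the neighbours, -0.42 to 0.10.

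The called neighbours were Bhlhb9, Tceal9 and Sh3bgrl. Bhlhb9, also named Gprasp3, encodes a relative of the Armcx proteins with the same kind of repeat domain. It fell by 0.40 at 4 h (SE 0.069, adjusted p = 0.00792 in limma's paired fit and 0.422 without pairing), with paired differences of -0.28, -0.32 and -0.61. Tceal9, of a family of small proteins related to a transcription elongation factor, fell by 0.42 at 4 h (adjusted p = 0.0118 in limma's paired fit, 0.152 unpaired) and by 0.36 at 12 h (0.0487 and 0.674). Sh3bgrl, a small protein with a thioredoxin-like fold, fell by 0.22 at 4 h (adjusted p = 0.0412 in limma's paired fit, 0.727 unpaired) and by 0.30 at 12 h (0.0215 and 0.966). At 12 h these 2, Tceal9 and Sh3bgrl, were the called neighbours, or 6.67%, beside 1.42% of all genes called lower. At 24 h the paired fit called 0.0968% of all genes lower and 0.0726% higher. Of the 30 neighbours 0 were called then, in limma's paired fit or in the unpaired fit. In the paired fit 2 of them had an unadjusted p under 0.05, where 7.94% of all genes had one.

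**Figure D5:**
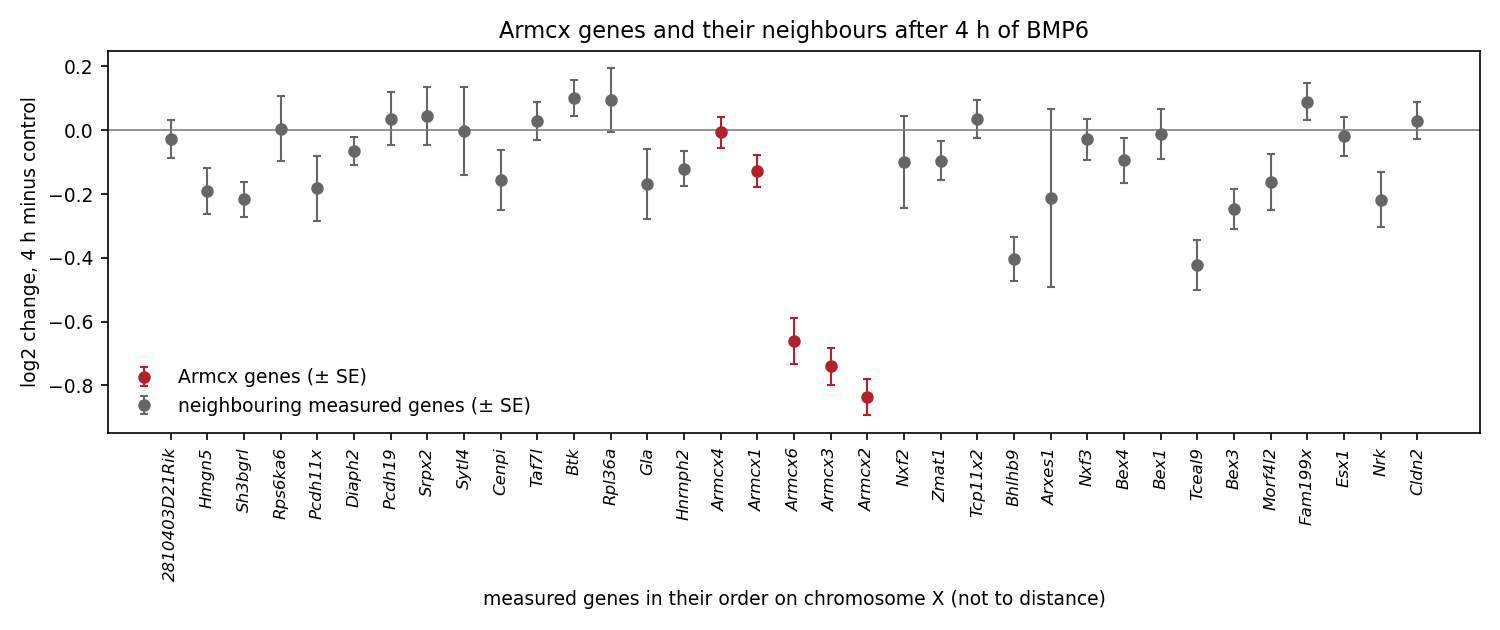
Log2 change after 4 h of BMP6 (mean ± SE from the paired fit) of the 5 Armcx genes (red) and the 15 nearest measured genes on each side (grey), in their order on chromosome X without distances. Armcx6, Armcx3 and Armcx2, whose low values were seen before the genes were chosen, stand between -0.84 and -0.66. No neighbour lies below -0.42, and Armcx1 and Armcx4 lie within the range of the neighbours.

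Relatives elsewhere and partners in mitochondrial movement were read from lists of known genes. Of 5 close relatives 2 were measured: Bhlhb9, described above, and Armc10, the gene from which the family is held to derive, with a change at 4 h of -0.14 (SE 0.043, adjusted p = 0.0823 in limma's paired fit). Of 12 Bex and Tceal genes from the same stretch of the chromosome 4 were measured. At 4 h 1 of the 4 (Tceal9) was called lower, beside 3.75% of all genes. Bex3 had -0.25 (adjusted p = 0.0503 in limma's paired fit), Bex4 -0.09 and Bex1 -0.01. The median of the 4 was -0.17. Of 20 genes of mitochondrial transport, fusion and fission 11 were measured, and 0 were called in limma's paired or unpaired fit in any of the 4 comparisons. Over all genes the paired fit called 3.75% lower and 2.27% higher at 4 h, and 1.42% and 0.472% at 12 h. The shares were 0.0968% and 0.0726% at 24 h, and 0.0242% and 0.0847% for 24 h minus 12 h. Little can thus be read from 0 of 11. At 4 h the changes of the 11 ran from -0.17 to 0.13 with a median of -0.05. An unadjusted p under 0.05 in the paired fit was found for 2 of the 11, beside 21.3% of all genes.

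Of 29 other armadillo repeat genes, among them catenins and importins, 21 were measured and 0 were called at 4 h in limma's paired or unpaired fit. Their median change was -0.02, and 2 had an unadjusted p under 0.05 in the paired fit, beside 21.3% of all genes. Over all genes that fit called 3.75% lower and 2.27% higher, so little can be read from 0 of 21. At 12 h 1 of the 21 was called lower, beside 1.42% of all genes. This was Jup, or plakoglobin, a protein of cell junctions. It fell by 0.30 (SE 0.043, adjusted p = 0.00857 in limma's paired fit, 0.354 unpaired), and its change at 4 h was -0.03 (adjusted p = 0.759).

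Likeness of pattern was measured over the 9 paired changes, as the root mean square difference in log2 units from another gene. Armcx3 and Armcx6 were each other's closest gene among 8266, with a difference of 0.13. From Armcx2, Armcx3 ranked 3rd (0.16) and Armcx6 ranked 11th (0.20), after Pmp22, a myelin and cell junction protein, at 0.15. Armcx1 and Armcx4 differed from each other by 0.11, and Armcx4 ranked 1667th in closeness to Armcx1. These 9 changes share the control arrays, and the 4 h changes that chose the genes are among them.

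The mean of the 5 members was -0.47 at 4 h, -0.25 at 12 h and -0.03 at 24 h. At 4 h it lay between Armcx6 (-0.66) and Armcx1 (-0.13), so it is the profile of no single member. The genes closest to this mean were Synrg, a partner of clathrin adaptors (0.074), Eid1, an inhibitor of the acetyltransferase p300 (0.075), Frmd4b, a scaffold protein (0.082), and Kat2b, a histone acetyltransferase (0.085). Next came Mif4gd (0.089), the forkhead factor Foxn3 (0.093), the corepressor Rere (0.095) and the lymphatic growth factor Vegfd (0.096). The median over all other genes was 0.34. Of these 8 genes 1, Vegfd, lies on chromosome X. Measured over the 3 mean changes instead, 2 of the 8 remained among the closest 8.

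The endothelial label was checked against markers. Of 15 endothelial markers 5 were measured, and all 5 lay below the reference RNA in control cells, from -1.62 for Cdh5 to -0.39 for Esam, so none of them stood out over that mixed reference. Of 7 epithelial markers 6 were measured with a median of -1.24 in control cells, of 7 blood markers 2 with -1.11, of 6 neural markers 3 with -0.76, and of 8 fibroblast markers 4 with 0.15, 3 of them above 0. The mean of the fibroblast markers per array ran from -0.24 to 0.32 at 4 h, against -0.02 to 0.42 in control cells, and that of the endothelial markers from -1.12 to -1.003 at 4 h, against -1.06 to -1.01 in control cells. The mean of the epithelial markers ran from -1.25 to -1.16 at 4 h, against -1.41 to -1.16 in control cells, that of the blood markers from -1.23 to -1.13 at 4 h, against -1.15 to -1.09 in control cells, and that of the neural markers from -0.63 to -0.17 at 4 h, against -0.60 to -0.38 in control cells. The median change of the measured markers at 4 h was -0.08 for endothelial, 0.05 for epithelial, -0.07 for blood, -0.14 for fibroblast and 0.16 for neural ones. The called markers at 4 h were 1 of 5 endothelial, 1 of 4 fibroblast, 1 of 3 neural, 0 of 6 epithelial and 0 of 2 blood genes. Over all genes 3.75% were called lower and 2.27% higher. The called markers of the endothelial and neural lists went against the median of their list. Flt1, an endothelial VEGF receptor, rose by 0.23 (adjusted p = 0.0366), while Col3a1, a fibrillar collagen, fell by 0.24 (0.0363) and Map2, a neuronal microtubule protein, by 0.28 (0.0204), all in limma's paired fit, with unpaired adjusted p-values of 0.346, 0.214 and 0.982. The part of such cell types in the Armcx changes was not tested.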

How the data were processed

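The deposited values are log ratios, taken as log2, that the authors normalized with a modified local quantiles method, per the labels. Images were quantified in GenePix Pro, per the labels. No spot intensities were used, so detection is not judged, and precision is limited by how many arrays there are. Each of the 12 arrays held 20280 values. Array medians lay between -0.044 and 0.002, SDs between 0.607 and 0.688, and correlations between 0.877 and 0.980. The most similar arrays had a median absolute difference of 0.061, so no array repeats another.

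The platform annotation gives 11083 probe numbers, of which 10576 name a single symbol (8267 genes in all). The 507 that name several were not used for names. Current symbols replaced 10548 of the listed ones. Probe numbers were placed on value rows by an order inferred from the data. It gave r = 0.471 between the first 2 probes of 1831 genes, which are not independent replicates, against 0.021 in the deposited row order. The order was inferred from such agreement, so this r is no separate check of it. Probes of a gene were averaged. Promoter sequences are from RefSeq, GRCm38.p6, which held 4 of the 5 members.

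Changes were fitted over all genes and 12 arrays by lmFit and eBayes of limma 3.58.1, run in R 4.3.3 (two-sided tests, Benjamini-Hochberg over 8267 genes, threshold 0.05), with the replicate number of the titles as a block. All 18 correlations of deviations from group means between same-numbered arrays were positive (0.443 to 0.695), so arrays were taken as paired. Those of other pairs ran from -0.564 to 0.069. This range is no separate evidence, since deviations within a group cancel out and so push these correlations down. What arrays of the same number have in common is not stated in the labels. The fit was tested on simulated data. All members were named, list genes when called (at most 4 a list) or next to the cluster, and the 8 genes closest to the mean of the members. Armc10, Bex1, Bex3, Bex4, Cdh5, Esam and Pmp22 fall outside this rule and were named after their values were seen. The members, lists and tests were chosen with earlier results of these data known. Gprasp3 carries its older name Bhlhb9 in the annotation. Alternatives were the fit without the block, quantile normalization, median centring, fits of 2 groups, left-out arrays, single probes, the deposited row order, the methods' t-test, and trend with robust eBayes.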

Additional observations from a re-analysis of the deposited data

Results flagged for a closer look

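Armcx2 differed between BMP6 times in a test of the difference itself. Its change against control was -0.08 at 24 h and -0.50 at 12 h, and the values were 0.42 higher at 24 h than at 12 h on the log2 scale (SE 0.057, adjusted p = 0.0387 in limma's paired fit, higher in 3 of 3 pairs). The call was lost without the replicate block (adjusted p = 1), in a fit of the 2 groups alone (0.0782) and without 10 of the 12 arrays left out singly. No test for an outlying array was made, since each group holds 3 arrays.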

How the results depend on the processing

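Leaving out the replicate block, so that arrays were not paired, lowered the genes called at 4 h, 12 h and 24 h against control and at 24 h against 12 h to 14, 0, 0 and 0, from 498, 156, 14 and 9 with it, and the members called at 12 h and at 24 h against 12 h to 0 and 0, from 2 and 1. Fits of the 2 groups alone called 81, 26 and 8 genes against control, 1 member at 12 h and 0 at 24 h against 12 h. The methods' t-test called 0, 1, 0 and 0 genes after adjustment and 0 members. With probe numbers read as deposited row numbers, 231, 44, 1 and 5 genes and 0 members were called, and other rows took the members' names: Armcx1, Armcx2 and Armcx3 were then 0.072, 0.0187 and 0.0597 at 4 h, Armcx2 and Armcx3 0.0193 and 0.0603 at 12 h, and Armcx2 -0.0343 at 24 h minus 12 h. The fit of single probes tests and counts probes in place of genes, so its counts cannot be set against the counts of genes above. It called 4 probes at 24 h and 4 at 24 h against 12 h. Trend with robust eBayes called 5 genes at 24 h against 12 h. Both fits called 0 members in that last comparison. Over left-out arrays and replicate numbers, genes called ran from 20 to 642 at 4 h, 3 to 288 at 12 h, 0 to 16 at 24 h and 0 to 28 at 24 h against 12 h, and members called from 0 to 2 at 12 h and 0 to 2 at 24 h against 12 h. The cause was not tested. Over single arrays left out, the change at 4 h ran from -0.88 to -0.79 for Armcx2, -0.80 to -0.71 for Armcx3 and -0.70 to -0.59 for Armcx6. Of 464 alternative values for the members' changes, 30 lost the threshold with their sign kept. The deposited row order also lost the 2 calls at 12 h and the 1 at 24 h minus 12 h, with the sign turned. The threshold was newly passed by 1 value (Armcx3 at 24 h minus 12 h, without control replicate 3, adjusted p = 0.0290). In all 41 turned sign, 13 in the deposited row order and 28 elsewhere. Those 28 were changes closer to 0 than 0.1, of Armcx4 in each comparison and of Armcx1, Armcx3 and Armcx6 at 24 h against control. Median centring moved the 12 h level of Armcx4 to -1.07, from -1.10.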
